A study of Mus musculus with 2 samples.

Results

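The genes described are those of the cytosolic ribosomal proteins of the mouse, the protein part of the ribosomes that translate nuclear-encoded messages. They were taken by name: every gene whose symbol is Rps or Rpl followed by a number and at most 1 letter and 1 further digit, together with Rplp0, Rplp1, Rplp2 and Rpsa. This rule found 84 of the 27998 genes in the files, 32 of the small subunit and 52 of the large subunit, on 19 chromosomes. All 84 were found by identifier in the GENCODE M21 annotation of GRCm38. The rule used no measured value, and no member served as a marker of any cell class below.

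Each mature ribosome carries 1 copy of nearly every one of these proteins, with the acidic stalk proteins Rplp1 and Rplp2 as the exception. The small subunit reads the message and the large subunit forms the peptide bond. Messages of ribosomal proteins usually begin with a cytosine inside a run of pyrimidines, the 5′ terminal oligopyrimidine tract, through which mTOR signalling sets how well they are translated. In leukocytes their abundance is a familiar feature of naive lymphocytes, while macrophages and neutrophils devote more of their messages to lysosomal and secreted products. A few members are paralogs of others: Rps27l of Rps27, Rpl22l1 of Rpl22, Rpl39l of Rpl39, Rpl3l of Rpl3 and Rpl10l of Rpl10.

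The series holds 2 single-cell libraries of 1 group. Both are labelled WT and CD11c_pos, and the cells were selected for CD11c, the integrin alpha chain of dendritic cells and many macrophages, from the tumour microenvironment of PyMT C57BL/6N mice, which develop mammary tumours from the polyomavirus middle T antigen. The labels do not say the age of the mice, the promoter of the transgene or whether a library is 1 animal or a pool, so the spread between the libraries may in part be technical. There is no second condition: the comparisons below are between classes of cells within these libraries. The libraries hold 17369071 and 13317214 UMIs (unique molecular identifiers, each counting 1 captured molecule), and 1900 and 1216 barcodes were kept as cells, with medians of 5660 and 7142 UMIs. The libraries shared 2 cell barcodes. The label says myeloid cells, and the largest gated class was macrophage-like with 754 cells. Cells with epithelial markers (138), T and NK markers (79), fibroblast markers (53) and B markers (15) were present too, so the selection was not purely myeloid.

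Promoter sequences are shown for members that stand apart or stand for the group in the results below, with the pyrimidine run and a binding motif of ETS factors in capitals. RefSeq promoters on GRCm38.p6 were matched for 63 of the 84 members by symbol. Each line gives 80 bases before the annotated start and 20 bases from it, 5′ to 3′ on the gene's strand. Capitals mark the letters CTTTCC, searched as a core of the pyrimidine tract, and CCGGAAG, an ETS core. Neither motif contains the other, and both were chosen after the sequences had been seen.

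Rpl38, chr11:114668500-114668599, plus strand: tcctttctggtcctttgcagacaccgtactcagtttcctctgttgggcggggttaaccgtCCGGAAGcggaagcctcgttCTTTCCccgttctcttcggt
Rps10, chr17:27635225-27635324, minus strand: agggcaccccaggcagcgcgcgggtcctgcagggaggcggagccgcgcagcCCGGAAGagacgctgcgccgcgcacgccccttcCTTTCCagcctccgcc
Rps27, chr3:90213629-90213728, minus strand: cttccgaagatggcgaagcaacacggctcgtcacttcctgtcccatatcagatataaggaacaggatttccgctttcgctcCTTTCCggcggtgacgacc
Rps27l (the first of 2 annotated starts), chr9:66946006-66946105, plus strand: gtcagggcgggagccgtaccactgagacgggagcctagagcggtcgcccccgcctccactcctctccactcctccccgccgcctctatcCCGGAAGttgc
Rpl22 (the first of 2 annotated starts), chr4:152325646-152325745, plus strand: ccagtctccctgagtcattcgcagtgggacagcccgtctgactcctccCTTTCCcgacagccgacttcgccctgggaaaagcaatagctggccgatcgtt
Rpl22l1, chr3:28805428-28805527, plus strand: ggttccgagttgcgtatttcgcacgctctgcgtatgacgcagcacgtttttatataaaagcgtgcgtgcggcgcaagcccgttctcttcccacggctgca
Rpsa, chr9:120127686-120127785, plus strand: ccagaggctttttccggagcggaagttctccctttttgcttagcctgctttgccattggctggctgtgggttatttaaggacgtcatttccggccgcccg
Rplp0, chr5:115559387-115559486, plus strand: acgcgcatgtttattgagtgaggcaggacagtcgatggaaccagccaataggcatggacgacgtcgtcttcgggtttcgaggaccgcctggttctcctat

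The letters CTTTCC began at base 1 of the annotated transcript in Rpl38, at base 2 in Rps27 and at base 5 in Rps10. In each of these genes further pyrimidines stood directly before them. In the Rpl22 window shown they began at base -32, before the annotated start, so there they are not part of the annotated transcript. For the counts, a gene was taken as holding a motif if any of its annotated promoters did. The window counted was the last 100 bases of each 300-base promoter, which differ from the 100 bases printed above. On the sense strand these letters were found there in 19 of the 63 matched members (30.2%) and in 1468 of 27025 genes (5.43%). On the opposite strand of the same last 100 bases they were found in 2 of 63 members (3.17%) and in 5.12% of all genes. CCGGAAG on either strand of the whole 300-base window was found in 26 of 63 members (41.3%) and in 9.93% of all genes. Rps27l, Rpl22l1, Rpsa and Rplp0 did not hold these 6 letters in the windows shown, which says only that this spelling is not there. Promoters of these genes share features with each other, so these shares are a description.

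Ribosomal protein messages made up 21.5% and 23.0% of all UMIs in cells. Over single cells the median share was 20.2% in replicate 1 and 21.9% in replicate 2, with quartiles of 15.5% to 26.0% and 18.0% to 27.1%. Single cells ranged from 3.22% to 63.5%, and a median of 80 members had a UMI in a cell of either library. Barcodes with at most 50 UMIs, which mostly hold free RNA, gave 23.2% and 21.1%, so free RNA had a share close to that of an average cell.

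Cells were sorted into classes by lists of marker genes, and 1018 cells (32.7%) stayed ungated. The classes differed widely in the share. The 15 B-like cells, all in replicate 2, had the highest, 48.1% of their summed UMIs (exact binomial 95% interval 47.6% to 48.5%, counting error only). T/NK-like cells followed at 35.1% ± 0.853 (SD, n = 2 libraries). The dendritic cell classes lay below them: cDC2-like at 28.6% ± 0.370, cDC1-like at 27.3% ± 0.680, cycling cDC-like at 26.5% ± 0.387 and mature DC-like at 25.1% ± 0.244. Fibroblast-like cells had 22.8% ± 1.82, epithelial-like cells 21.7% ± 0.0393 and monocyte-like cells 21.3% ± 0.782. Lipid-associated macrophage-like cells had 19.9% ± 1.38, macrophage-like cells 17.7% ± 0.779 and resident macrophage-like cells 14.9% ± 1.06. The lowest value was 13.4% in 13 neutrophil-like cells, again of replicate 2 only. Median UMIs of 2221 (B-like) and 2204 (neutrophil-like) lay near the 1905 UMIs asked of a cell in replicate 2. Replicate 1 asked for 2112. With at least 1000 UMIs in both libraries, B-like cells numbered 1 in replicate 1 and 25 in replicate 2. Neutrophil-like cells then numbered 21, all in replicate 2.

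**Figure D1:**
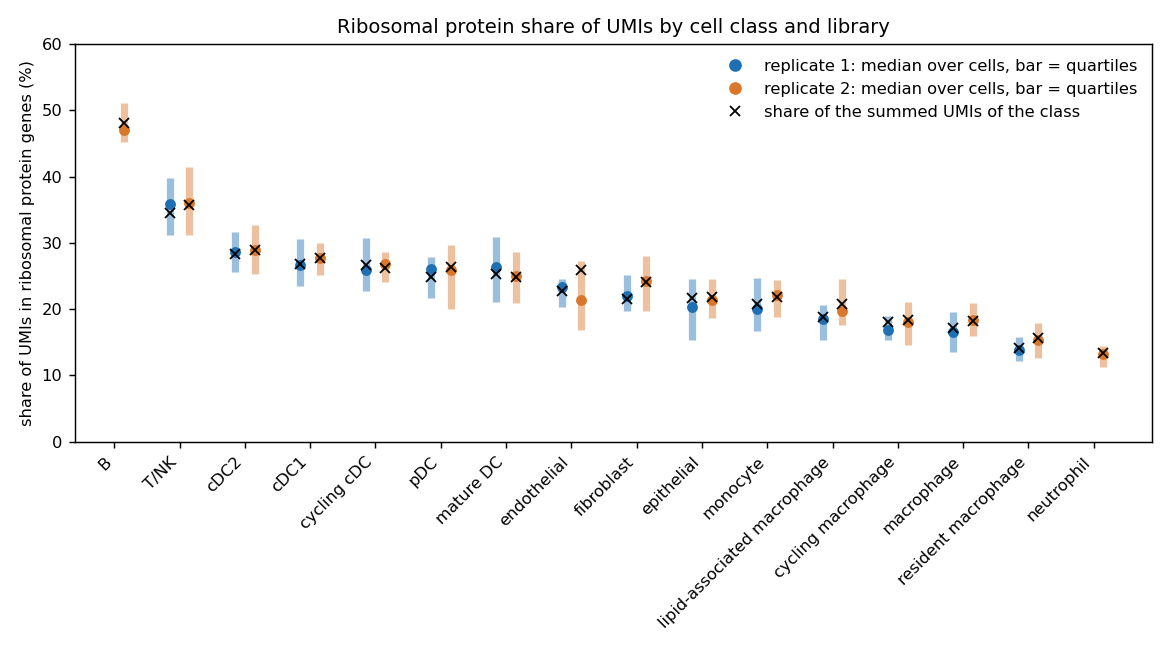
Share of a cell's UMIs in ribosomal protein genes (y axis, percent) for each gated class (x axis, names without the suffix "-like"), with replicate 1 in blue and replicate 2 in orange; dots are medians over cells, bars run between the quartiles and crosses are shares of the summed UMIs. B-like and T/NK-like cells stand highest, the dendritic classes near 25% to 29%, and resident macrophage-like and neutrophil-like cells lowest.

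Several neighbours in this order lay close together. The libraries of epithelial-like, monocyte-like and fibroblast-like cells overlapped, as did those of monocyte-like (20.7% and 21.8%) and lipid-associated macrophage-like cells (18.9% and 20.8%). Those of cDC1-like cells (26.8% and 27.8%) lay just above those of cycling cDC-like cells (26.7% and 26.2%). Mature DC-like cells (25.3% and 24.9%) lay under both cDC classes in each library, and resident macrophage-like cells (14.1% and 15.6%) under macrophage-like cells (17.2% and 18.3%) in each library. With 2 libraries no exact permutation test can reach 0.05, so these orders carry no p.

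Classes with a high share differed in their UMIs per cell. T/NK-like cells had medians of 1295 and 1378 ribosomal protein UMIs per cell against 864 and 1281 in macrophage-like cells. Their other UMIs were far fewer, at 2381 and 2198 against 4492 and 5597. cDC1-like cells had 2161 and 2591 ribosomal protein UMIs beside 5654 and 7317 others, so they were higher than macrophage-like cells in both quantities. The B-like cells held a median of 1030 ribosomal protein UMIs and 1191 others. Resident macrophage-like cells had 617 and 690, and neutrophil-like cells 292 beside 1956 others. UMIs per cell mix RNA content with capture, which were not separated.

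Within a class, cells differed by more than counting error. The SD of the share over macrophage-like cells was 4.56 and 3.79 percentage points, where counting alone would give 0.540 and 0.495. The T/NK-like cells of replicate 2 varied most, with an SD of 9.64 points. Over the classes with at least 20 cells in a library, Spearman's rho between a cell's share and its total UMIs lay between -0.25 and 0.42. This is a description over cells of 1 library, whose share and total contain the same UMIs.

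Single members were compared on UMI counts summed per library and class. Of the 84 members, 82 passed the filter on low counts; Rpl10l had no UMI in any cell and Rpl3l had 22 UMIs in all. Levels are given as CPM, the count scaled to a common library total after TMM scaling, and called means an adjusted p under 0.05 over all 7071 genes tested in edgeR's quasi-likelihood test with the library as a block. The T/NK, cDC1, cDC2 and mature DC comparisons all use the same macrophage-like sums, so their values are set side by side and not counted as independent. A CPM is a share of the captured messages, and fewer other messages cannot be told apart from more ribosomal protein messages.

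T/NK-like cells had higher levels of nearly all members than macrophage-like cells. Of 82 members 77 were called higher, where 10.5% of all genes were called higher, and none was called lower (11.7% of all genes). No member was lower at an unadjusted p under 0.05 either, and DESeq2 called 78 higher and 0 lower. The median log2 fold change of the members was 0.94, against -0.09 for all genes. Rps15a, a protein of the small subunit, rose most: 8290 and 8136 CPM in T/NK-like cells against 2651 and 2752 in macrophage-like cells, a 3.04-fold difference (SE on the log2 scale 0.15; adjusted p 5.68e-09). Rpsa, known also as the laminin receptor, stood at 4223 and 4272 CPM against 1435 and 1648, a 2.77-fold difference (adjusted p 1.84e-07). Rpl13a, known for silencing inflammatory messages in myeloid cells when phosphorylated, stood at 8029 and 9480 CPM against 3282 and 3653. Rpl23a (log2 fold change 1.27) and Rps7 (1.27) completed the 5 largest rises. In all 5 genes both T/NK sums lay above both macrophage sums.

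The members that did not follow in T/NK-like cells were few. Rps29, one of the smallest members, stood at 4489 and 3937 CPM against 3649 and 3396 (log2 fold change 0.26 ± 0.15, adjusted p 0.254). Rps25 had a log2 fold change of 0.34 (adjusted p 0.121). Rps27l stood at 835 CPM in replicate 1 and 261 in replicate 2 against 611 and 561, so the libraries lay on opposite sides of the macrophage level (adjusted p 0.793).

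The conventional dendritic cells were also higher than macrophage-like cells in most members. In cDC1-like cells 73 members were called higher (11.7% of all genes) and 0 lower (14.3% of all genes; 0 of the members also at an unadjusted p under 0.05 and by DESeq2), with a median log2 fold change of 0.65. In cDC2-like cells 77 were called higher (11.8% of all genes) and 0 lower (13.7%; 0 likewise), with a median of 0.73. Rpsa rose most in both. It stood at 3683 and 4477 CPM in cDC1-like cells and at 3579 and 3726 CPM in cDC2-like cells, which is 2.64-fold and 2.38-fold the macrophage level. Rps6, the substrate of S6 kinase, stood at 4734 and 5413 CPM and at 4806 and 5493 CPM, against 2352 and 2725 (adjusted p 3.32e-06 and 2.56e-06). Rpl14 and Rpl17 were further large rises in cDC1-like cells (1.07 and 1.04), and Rpl13 (1.02) in cDC2-like cells.

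Rpl22l1 and Rps29 were not called in either class. Rpl22l1 stood at 844 and 851 CPM in cDC1-like cells against 908 and 930, a log2 fold change of -0.12 (adjusted p 0.709), and Rps29 had 0.24 (adjusted p 0.268). In cDC2-like cells Rplp1, an acidic stalk protein, had 0.31 (adjusted p 0.172).

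Compared directly, cDC1-like and cDC2-like cells did not differ in any member past the threshold: 0 were called higher (4.62% of all genes) and 0 lower (6.27%). At an unadjusted p under 0.05, 1 was higher and 3 were lower, and DESeq2 called 1 lower. The median log2 fold change was -0.09 with quartiles of -0.18 and 0.01. A miss of the threshold does not show equal levels: Rplp1 stood at 6321 and 7393 CPM in cDC1-like cells against 5219 and 5369 in cDC2-like cells, with no overlap (log2 fold change 0.37, adjusted p 0.162).

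Mature DC-like cells, which carry Ccr7, Fscn1 and Ccl22, were higher than macrophage-like cells in most members and differed from the other dendritic cells in a few. Against macrophage-like cells 69 members were called higher (14.2% of all genes) and 0 lower (13.4%), with a median log2 fold change of 0.61. At an unadjusted p under 0.05, 1 was lower, and DESeq2 called 73 higher and 0 lower. With classes taken from Leiden clusters the count of 69 fell to 37. The largest rise was that of Rps27l, in human cells a known p53 target: 2588 and 2211 CPM against 611 and 561, a 4.09-fold difference (log2 2.03 ± 0.25, adjusted p 5.18e-07). Rpsa stood at 4925 and 4589 CPM (log2 fold change 1.63). Rps19, the gene most often mutated in Diamond-Blackfan anaemia, stood at 10058 and 9697 CPM against 3790 and 4017 (log2 fold change 1.34 ± 0.14, adjusted p 1.32e-08).

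Set against the mean of the cDC1-like and cDC2-like classes, mature DC-like cells had 2 members called higher (10.2% of all genes) and 2 called lower (6.36%), with a median of -0.11. The 2 that rose were Rps27l (1.09 ± 0.21, adjusted p 0.000332) and Rps19 (0.58 ± 0.11, adjusted p 0.000439). Rpl14 was among the 2 that fell, at 3094 and 3197 CPM against 3972 and 4535. With scaling to total UMIs only, the split was 2 higher and 14 lower. Rps27l and Rps19 lay above, and Rpl14 below, both libraries of the reference.

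**Figure D2:**
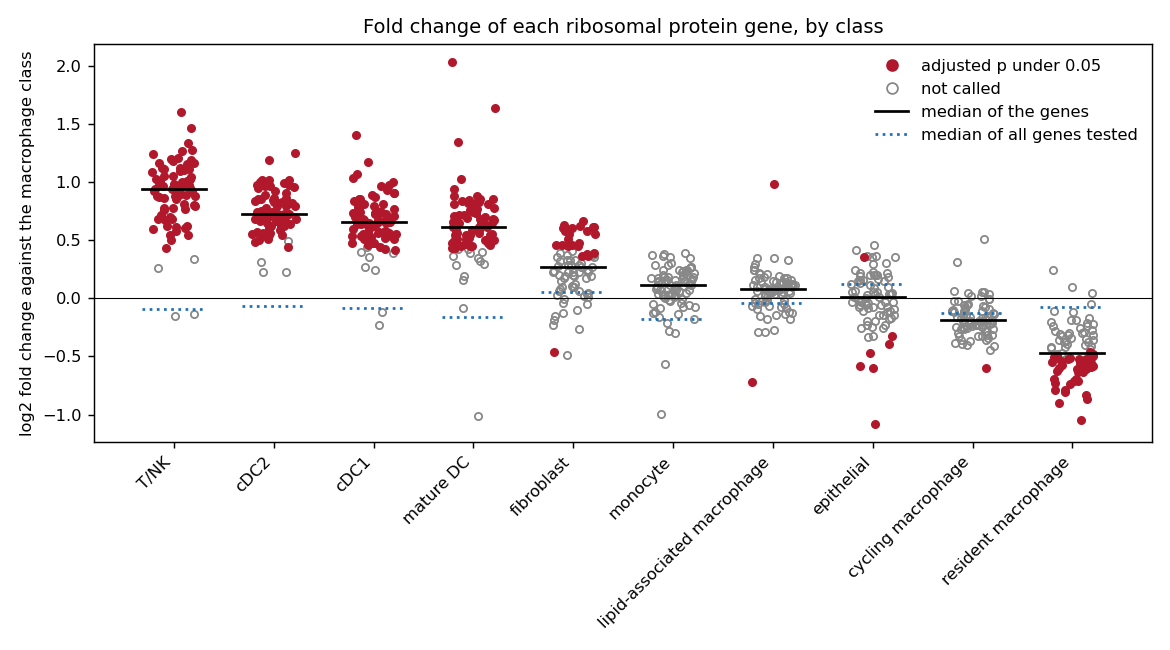
Log2 fold change (y axis) of each tested member except Rpl39l against the macrophage class, 1 column per class (x axis, names without "-like"); filled dots passed an adjusted p of 0.05, solid lines are the members' medians and dotted lines the medians of all genes tested. The T/NK and DC columns lie almost wholly above 0 (members' medians 0.61 to 0.94), the resident macrophage column almost wholly below (median -0.47), and Rps27l tops the mature DC column at 2.03.

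The fibroblast-like and epithelial-like classes gave mixed results. In fibroblast-like cells 24 members were called higher (23.3% of all genes) and 1 lower (17.5%); the share called higher was near the background, and the share called lower was under it. Among the largest rises were Rps15, Rplp0, Rps3a1 and Rps2, with log2 fold changes of 0.61 to 0.66. Rplp0, the scaffold of the stalk, stood at 3122 and 4437 CPM against 2278 and 2571. The call count moved with the scaling, to 45 with RLE size factors, 49 with total UMIs only and 55 by DESeq2. Fibroblast-like cells counted 27 and 26.

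In epithelial-like cells 1 member was called higher (27.0% of all genes) and 6 lower (21.7%), both under the background, with a median log2 fold change of 0.01. Rps29 fell most, from 3649 and 3396 CPM in macrophage-like cells to 1751 and 1588 CPM (log2 fold change -1.08 ± 0.15, adjusted p 9.93e-07). Rps25 (-0.59), Rps9 (-0.47) and Rpl10 (-0.40) fell as well, and Rpl23a rose (0.35, adjusted p 0.0339). The split turned with the scaling: total UMIs only gave 44 higher and 2 lower, with the median of all genes moved from 0.13 to 0.43, and RLE size factors gave 5 and 5. Rps29 lay between -1.21 and -0.75 under every alternative run. Epithelial-like cells had the highest mitochondrial share of the classes in the fit, with medians of 5.11% and 6.14%.

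Within the macrophage lineage, few members, and few genes of any kind, were called between macrophage-like cells and their lipid-associated or monocyte-like neighbours. Few calls do not show equal levels, and the shares of both neighbours lay above that of macrophage-like cells in each library. The members' median log2 fold changes were 0.08 (lipid-associated) and 0.12 (monocyte), against -0.04 and -0.18 for all genes. With scaling to total UMIs only the members' medians were 0.18 and 0.28. In lipid-associated macrophage-like cells, marked by Spp1 and Gpnmb, 1 member was called higher (2.97% of all genes) and 1 lower (3.51%). They were both paralogs. Rps27l stood at 1238 and 1085 CPM against 611 and 561 (log2 fold change 0.99 ± 0.25, adjusted p 0.0125), and Rpl22l1 at 525 and 595 CPM against 908 and 930 (-0.72 ± 0.18, adjusted p 0.011). Neither pair of libraries overlapped. Both calls were lost with equal numbers of cells per class (adjusted p 0.122 and 0.213), and that of Rps27l without the library block (adjusted p 0.0671). In monocyte-like cells 1 member was called higher (1.70% of all genes) and 0 lower (2.39%; 1 at an unadjusted p under 0.05 and 1 by DESeq2). The member called, named after its values were seen, was Rpl39l, which rested on 8 UMIs in 1 cell of replicate 2 and 0 in replicate 1.

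Resident macrophage-like cells, marked by Folr2, Lyve1 and Cd163, were the class with lower levels across the members. They counted 165 cells in replicate 1 and 19 in replicate 2, under the minimum of 20, and were fitted only after the minimum had been lowered to 15 with the cell counts known. Of 82 members 0 were called higher (4.31% of 6570 genes; also 0 at an unadjusted p under 0.05) and 40 lower (5.43%), with a median log2 fold change of -0.47 against -0.07 for all genes. In settings that gave at least 20 cells in each library with no change of the minimum, 35 to 41 members were called lower. Rplp0 fell most, from 2347 and 2605 CPM to 1204 and 1166 CPM (-1.05 ± 0.16, adjusted p 4.06e-05). Rpl3, a large-subunit protein that reaches the peptidyl transferase centre, fell to 1038 and 1111 CPM from 1864 and 2163 (-0.90 ± 0.16). Rps2 (-0.87), Rpl12 (-0.83) and Rpl4 (-0.81) were the other large falls. In each of these 5 genes both resident sums lay below both macrophage sums.

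Other members had small fold changes in resident macrophage-like cells that missed the threshold. Rps29 stood at 4583 and 3943 CPM against 3761 and 3441 (log2 fold change 0.24, adjusted p 0.387), so both resident sums lay above both macrophage sums. Rpl38 had 0.04 (adjusted p 0.927) and Rpl37a had -0.05 (adjusted p 0.897). The fold change fell with the length of the coding sequence: Spearman's rho was -0.61 across 80 members, and -0.60 and -0.53 within the libraries. In the other comparisons with macrophage-like cells it lay between -0.43 (lipid-associated) and 0.37 (cDC2). Members are not independent replicates and these comparisons share the macrophage sums, so no p is given. Median UMIs per cell were lower in resident than in macrophage-like cells, 4349 and 5135 against 5469 and 6974, and their mitochondrial shares were 2.88% and 3.42% against 2.32% and 2.57%; their part in the result was not tested.

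**Figure D3:**
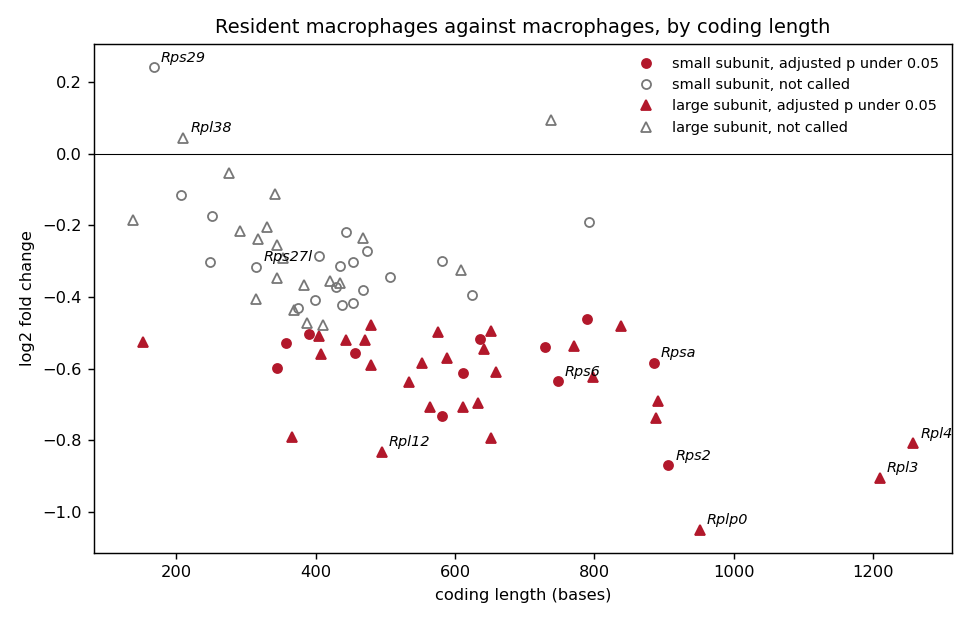
Log2 fold change of each member in resident macrophage-like against macrophage-like cells (y axis) by the length of its longest annotated coding sequence in bases (x axis); circles are small-subunit and triangles large-subunit members, and filled symbols passed an adjusted p of 0.05. Short members such as Rps29 and Rpl38 lie near 0 and long ones such as Rplp0, Rpl3 and Rpl4 between -0.81 and -1.05.

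Dividing cells make ribosomes, and cycling cells were compared with non-cycling cells of their lineage. Cycling cDC1-like cells had medians of 3324 and 4289 ribosomal protein UMIs against 2161 and 2591 in the non-cycling cDC1-like cells. Their shares were 26.4% and 25.9% against 26.8% and 27.8%. Cycling cDC2-like cells had medians of 1627 and 3495 against 1609 and 2152, with shares of 28.1% and 26.5% against 28.3% and 28.9%. Cycling cells of the macrophage classes had medians of 1421 and 2299 against 825 and 1275, with shares of 18.1% and 18.4% against 17.0% and 18.6%. The median ribosomal protein UMIs were thus higher in cycling cells in each lineage and library, by little in cDC2-like cells of replicate 1. The share was higher only in the macrophage classes of replicate 1. A cell counted as cycling once 3 markers had a UMI, with no scaling for depth, so deeper cells pass more readily. Median total UMIs were 11828 and 16150 against 7661.5 and 10040 in cDC1-like cells. They were 5060 and 12909 against 5890 and 7601 in cDC2-like cells, and 7950 and 13519 against 5254 and 6912 in the macrophage classes. Depth and cycling were thus not separated in these medians. Against the mean of the cDC1-like and cDC2-like classes, 0 members of cycling cDC-like cells were called higher (2.64% of all genes) and 0 lower (0.396%). At an unadjusted p under 0.05, 0 were higher and 20 lower, and DESeq2 called 0 higher and 8 lower. The median was -0.21, and 81 of 82 members had a fold change under 0. With classes from Leiden clusters 62 were called lower. That setting put 106 and 76 cells in the cycling cDC class, in place of 36 and 37. A cluster of 349 cells took the name cDC2 there from 27 of its 63 gated cells. The 20, 8 and 62 have no share over all genes beside them, so they are not read as a result about the members. In cycling macrophage-like cells (23 and 16 cells, fitted with the lowered minimum) 0 members were called higher (3.18%; 1 at an unadjusted p under 0.05) and 1 lower (1.11%). The member that fell was Rps27, to 2204 and 1764 CPM from 3220 and 2784 (-0.60 ± 0.15, adjusted p 0.0124). In this fit the cycling cells came from the macrophage, resident and lipid-associated classes together. They were set against the macrophage-like class alone, so cycling and class were not separated.

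The make-up of the ribosomal protein pool varied little between classes for most members. The small-subunit genes held 43.0% of the pool in epithelial-like cells and 46.6% in mature DC-like cells, the extremes of the classes in the fit. For each of the 81 members with at least 1000 UMIs, the log2 share of the pool was compared over 11 classes. The median SD between classes was 0.15, beside a median SD between libraries of 0.09. Only 6 of the 81 had an SD between classes over 0.3, among them Rpl7l1, Rps27l, Rps29, Rpl22l1 and Rpsa. Rps10, Rps14 and Rpl39 were the steadiest, with SDs of 0.06, 0.06 and 0.07.

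**Figure D4:**
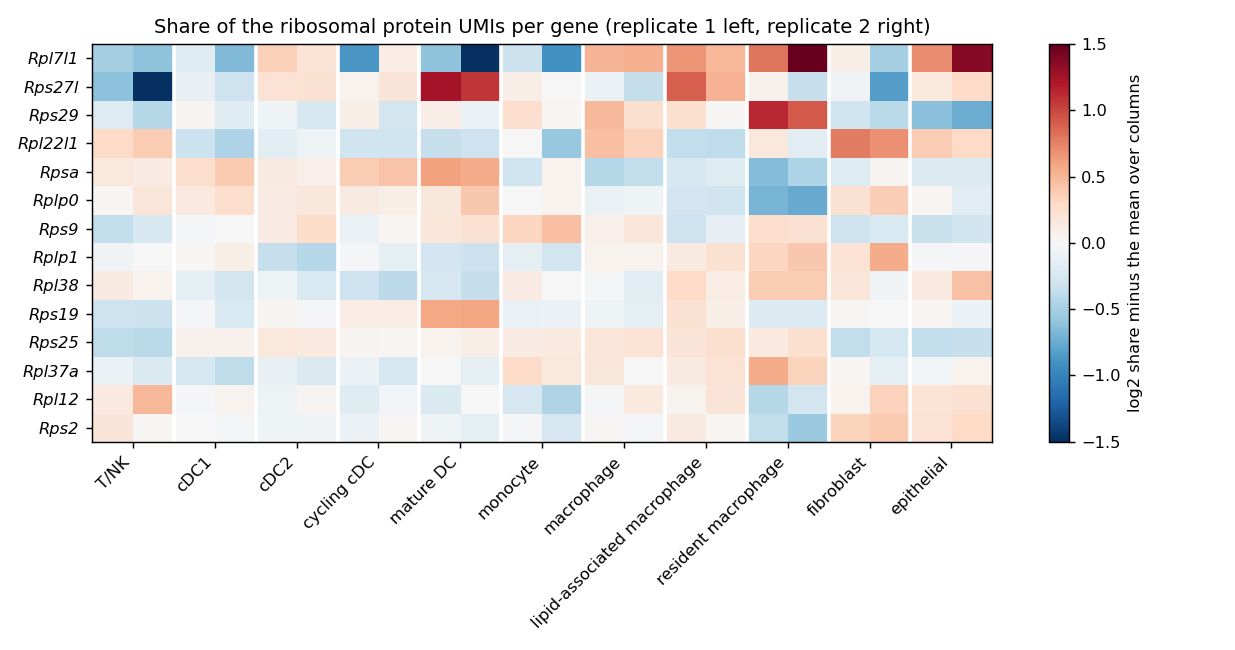
Share of all ribosomal protein UMIs held by each of 14 of the members that varied most between classes (rows), as log2 minus the mean over columns, for each class (x axis, names without "-like") with replicate 1 left and replicate 2 right. Rps27l and Rps19 are high in the mature DC columns, Rps29 is high in resident macrophages and low in epithelial cells, and Rpsa is highest in mature DC and lowest in resident macrophages.

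Rps29, a zinc-binding protein of the small subunit head, made up 3.26% and 2.79% of the pool in resident macrophage-like cells. In epithelial-like cells it made up 0.960% and 0.887%. Rpsa made up 1.67% and 1.62% in mature DC-like cells and 0.700% and 0.794% in resident macrophage-like cells. In both genes the extremes did not overlap between libraries. Rpl7l1 rested on 592 and 473 UMIs in all cells, and its SD between libraries was 0.54.

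The 3 stalk genes, whose products recruit the elongation factors, are given side by side. Rplp0 rose in T/NK-like (log2 fold change 1.11), cDC1-like (0.97), cDC2-like (0.98), mature DC-like (1.03) and fibroblast-like cells (0.63). Rplp1 rose in T/NK-like (0.85), cDC1-like (0.68) and fibroblast-like cells (0.61), and its values in cDC2-like (0.31) and mature DC-like cells (0.29) missed the threshold. Rplp2 rose in T/NK-like (0.97), cDC1-like (0.51), cDC2-like (0.71) and mature DC-like cells (0.83), with 0.09 in fibroblast-like cells. In resident macrophage-like cells Rplp0 fell, while Rplp1 had -0.11 (adjusted p 0.77) and Rplp2 -0.35 (adjusted p 0.14). Differences between the stalk genes were not tested.

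The part that a paralog held of its pair's UMIs ranged widely between classes. Rps27l made up 16.4% and 17.0% of the UMIs of Rps27l and Rps27 in macrophage-like cells. In mature DC-like cells the share was 30.9% and 31.3% and in lipid-associated macrophage-like cells 29.1% and 25.5%. In cycling macrophage-like cells it was 28.2% and 32.1%, and in cycling cells outside the macrophage and cDC classes 26.1% and 30.7%. Cycling macrophage-like cells include those of the lipid-associated class, so cycling and class were not separated there. In T/NK-like cells the Rps27l share was 11.6% and 4.01%, and in the B-like cells 0.540%. The 2 libraries of T/NK-like cells differed more than those of any other class shown.

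Rpl22l1 made up 47.8% and 46.1% of the UMIs of Rpl22l1 and Rpl22 in macrophage-like cells and 52.8% and 51.6% in fibroblast-like cells. The share was 31.5% and 27.4% in cDC1-like cells and 31.4% and 31.2% in lipid-associated macrophage-like cells. Rpl22, which is needed for the development of alpha-beta T cells, rose in T/NK-like cells, to 2179 and 1977 CPM from 992 and 1089, and Rpl22l1 rose there by a log2 fold change of 0.86. In cDC1-like cells Rpl22 rose by 0.97 while Rpl22l1 had -0.12. Molecules of 2 genes of similar sequence can be split by the counting, so these shares carry that limit.

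**Figure D5:**
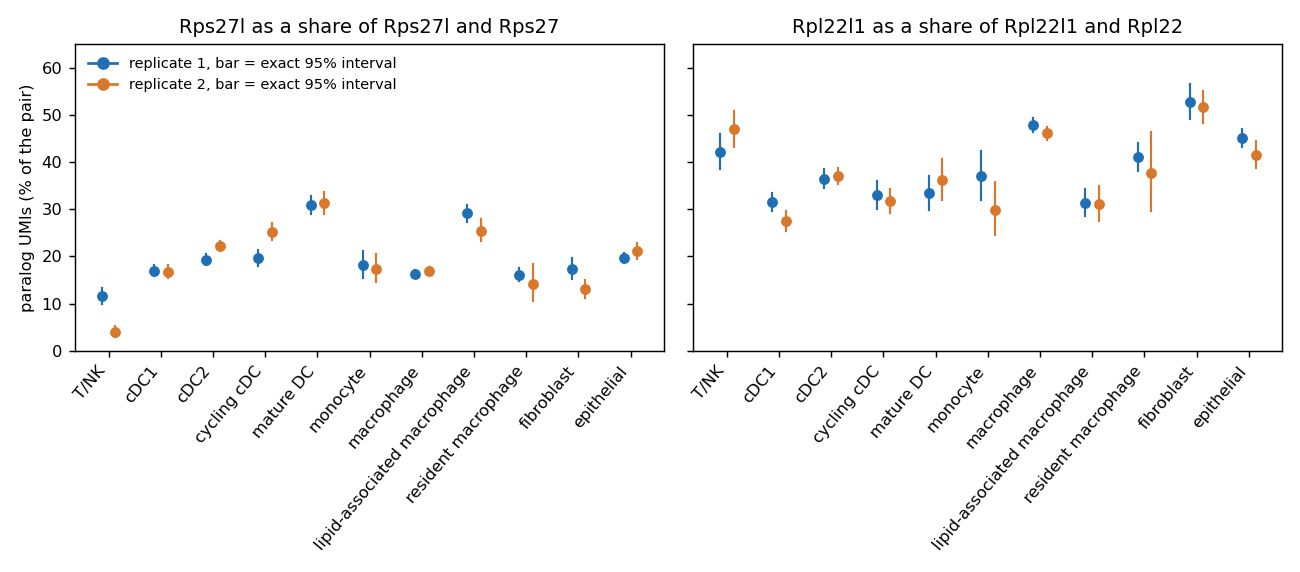
Share of a pair's UMIs that belong to the paralog (y axis, percent) for Rps27l with Rps27 (left) and Rpl22l1 with Rpl22 (right) by class (x axis, names without "-like"), with exact binomial 95% intervals that cover counting error only. Among the classes drawn, which leave out cycling macrophages, Rps27l is highest in mature DC, at 30.9% and 31.3%, and Rpl22l1 is highest in fibroblasts, at 52.8% and 51.6%.

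Rpl39l, known from the testis, was rare: 49 UMIs in all cells. Fibroblast-like cells held 8 of them in 5 cells of replicate 1 and 12 in 4 cells of replicate 2. Macrophage-like cells of both libraries had none among 754 cells, an upper limit of 0.398% of cells with a UMI. This limit is 3 divided by the number of cells, an approximate 95% bound that treats cells as independent draws. The cells come from 2 libraries, so the bound covers counting error only. Mature DC-like cells had 7, all in 1 cell of replicate 1. Rpl10l, another testis gene, had no UMI in any of the 3116 cells, an upper limit of 0.0963% reckoned in the same way. Rpl3l, a muscle gene, had 14 and 8 UMIs.

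Genes that work with the ribosome were taken from lists written with earlier results of these data known. Of 5 tested genes of ribosomal proteins outside the naming rule, 4 were called higher in T/NK-like cells (10.5% of all genes). In cDC1-like and cDC2-like cells 5 each were called higher (11.7% and 11.8%), and 3 in mature DC-like cells (14.2%). Each class was set against macrophage-like cells. None of the 5 genes was called lower in these classes (11.7%, 14.3%, 13.7% and 13.4% of all genes). The list's median log2 fold change was 0.87 in T/NK-like and 0.78 in cDC2-like cells. Fau, whose product is cut to give Rps30, was the exception in T/NK-like cells (0.35, adjusted p 0.1). It fell in epithelial-like (-0.83) and fibroblast-like cells (-0.79). Gnb2l1, which encodes Rack1, rose in T/NK-like cells by 0.87.

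Of 8 elongation factor genes, 7 were called higher in T/NK-like cells (10.5% of all genes), with a median log2 fold change of 0.83. In cDC1-like and cDC2-like cells 5 each were called higher (11.7% and 11.8%). None was called lower in these classes (11.7%, 14.3% and 13.7% of all genes), and 3 were called lower in resident macrophage-like cells (5.43%). Eef1a1, which brings aminoacyl-tRNA to the ribosome, rose in T/NK-like cells by 0.92, and Tpt1 by 0.69. Of 26 initiation factor genes, 7 were called higher (10.5% of all genes) and 2 lower (11.7%) in T/NK-like cells, with a median of 0.34. In cDC1-like cells 10 were called higher (11.7%) and 0 lower (14.3%), with a median of 0.41.

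Of 25 tested genes of ribosome biogenesis, 4 were called higher in T/NK-like cells (10.5% of all genes), 7 in cDC1-like cells (11.7%) and 3 in cDC2-like cells (11.8%), with medians of 0.61, 0.37 and 0.01. In cDC2-like cells 1 was called lower, and 0 in the other two. The counts in T/NK-like and cDC2-like cells were near the background. Npm1, the nucleolar chaperone, rose in T/NK-like (0.94) and cDC1-like cells (0.61), and Ncl in T/NK-like cells (0.61). In mature DC-like cells against macrophage-like cells 0 biogenesis genes were called higher (14.2% of all genes) and 4 lower (13.4%), with a median of -0.72; the count called lower was near the background. Against the cDC classes 0 were higher (10.2%) and 6 lower (6.36%), with a median of -0.84. Of 38 genes of the mitochondrial ribosome, 1 was called higher (10.5% of all genes) and 1 lower (11.7%) in T/NK-like cells, with a median of 0.02. In cDC1-like cells 8 were called higher (11.7%) and 2 lower (14.3%), with a median of 0.37. In cDC2-like cells the counts were 5 (11.8%) and 1 (13.7%), with a median of 0.01, and the count called higher was near the background. In mature DC-like cells 1 was called higher (14.2%) and 7 lower (13.4%) against macrophage-like cells, with a median of -0.34. That count called lower was not far above the background. Against the cDC classes the counts were 1 (10.2%) and 9 (6.36%), with a median of -0.52.

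Many members have processed pseudogenes, which limits the levels above. GENCODE M21 names 298 pseudogenes of 60 members, and 16 such rows are in the table as genes of their own. Rpl6l, which the naming rule takes in, is itself annotated there as a processed pseudogene. Rpl27-ps3 held 30.5% as many UMIs as Rpl27, Rpl23a-ps3 23.6% as many as Rpl23a and Rps12-ps3 22.5% as many as Rps12. Levels of these members are uncertain where molecules were split between copies or set aside as ambiguous. Whether the split was the same in every class was not tested.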

How the data were processed

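Both libraries were made with the 10x Genomics 3′ kit, version 2. Per the submitters' processing notes the authors ran Cell Ranger 2.2.0 on mm10; no label names the annotation release or the handling of multi-copy reads. The deposited values are raw UMI counts for every gene and barcode, with no filter on cells. The members, marker lists and tests were chosen with earlier results of these data known.

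Cells were called at 2112 and 1905 UMIs (the 99th percentile of the top 3000 barcodes divided by 10), with at least 200 genes and at most 10% mitochondrial UMIs, and the 30 and 12 highest Scrublet scores were removed as doublets. Marker levels were standardised over cells and capped at 3. A cell took the class of its highest mean score if this was at least 0.5, led the next by 0.2 and at least 3 markers had a UMI; cells with at least 3 cycling markers were kept apart. Of 152 markers 147 matched, and 834 cells lay within 0.1 of a limit. Every named class had at least 4 markers raised and at least 3 of its own among its top 10 genes. Names were thus rebuilt, not the authors'.

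Sums of 10 classes, those reaching 20 cells per library, were fitted together with edgeR 4.0.16 (R 4.3.3; filterByExpr, TMM, quasi-likelihood test, library as a block, Benjamini-Hochberg over 7071 genes; 9 residual degrees of freedom), after tests on simulated data. The replicate numbers mark the library in which classes were captured together, so the block pairs them. Genes were named by rule: per comparison the 5 largest rises and falls (called, 1 sign in both libraries, at least 50 CPM), the 5 members farthest from the members' median, and the paralogs, stalk genes, Rpsa and Rps6. Rps4l in that rule is no gene of the table, and some genes that the rule or lists name are not reported here. Alternatives were other scalings, DESeq2 1.42.0, other filters, gates and clusters, and equal numbers of cells (26).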

Additional observations from a re-analysis of the deposited data

How the results depend on the processing

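The counts of members called higher in T/NK-like (67 to 78), cDC1-like (61 to 78) and cDC2-like cells (59 to 77) stayed within 1.5 times the reported count under every alternative run, as did the 40 lower in resident macrophage-like cells (35 to 41) in the 3 settings that could be fitted besides the added one. The named members gave 39 called pairs of gene and comparison, in which a gene can recur. Of their 583 values under alternatives, 565 were counted as unchanged, 18 missed the threshold and 0 reversed. Values with a library left out are among them and were judged on direction only. Rises and falls were named only with 1 sign in both libraries, so for those a reversal without a library was all but excluded by the choice. Without the replicate block, members called higher were 75, 67, 73 and 60 for T/NK-like, cDC1-like, cDC2-like and mature DC-like cells; among the comparisons that reached 20 cells per library the block changed no other count by more than 1.5 times than those given below, and those of resident and cycling macrophage-like cells were not fitted without it. The minimum of 15 cells was chosen after the cell counts were seen. Leaving out a library left no residual degrees of freedom, so it gave values with no test. Depth limits the rare members: Rpl39l and Rpl3l had 49 and 22 UMIs in all.

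Epithelial-like cells, members called higher (1 reported): RLE size factors gave 5, total UMIs only 44, scaling without members 0, DESeq2 9, no filter on low counts 0, no replicate block 0, at least 1000 UMIs 0, no mitochondrial filter 0, a gate margin of 0.5 gave 6, Leiden clusters 0, equal cells 3 and a minimum of 15 cells 3. Fibroblast-like cells (24): RLE 45, total UMIs 49, DESeq2 55, at least 1000 UMIs 14, at most 5% mitochondrial 45 and Leiden clusters 13. Lipid-associated macrophage-like cells (1): total UMIs 3, DESeq2 4, no replicate block 0, margin 0.5 gave 2 and equal cells 0. Monocyte-like cells (1): total UMIs 7, DESeq2 6 and equal cells 0. Mature DC-like cells against macrophages (69): Leiden clusters 37. Mature DC-like cells against the cDC classes, called lower (2): RLE 1, total UMIs 14, DESeq2 4, no filter 4, no replicate block 1, margin 0.5 gave 6, thinned cells 1 and Leiden clusters 6. cDC1-like against cDC2-like cells, called lower (0): DESeq2 1 and Leiden clusters 1. Cycling cDC-like cells, called lower (0): DESeq2 8, margin 0.5 gave 4 and Leiden clusters 62. The causes were not tested.

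Values under a fold change that was not called reversed as follows. Leaving out a library gave -1.09 to 0.45 for Rps27l in T/NK-like cells and -0.14 to 0.019 for Rpl37a in resident macrophage-like cells. With Leiden clusters Rpl22l1 in cDC2-like cells was -0.0099, Rpl10a in mature DC-like cells -0.12 and Rpl38 in resident macrophage-like cells -0.18. In cycling cDC-like cells Rpl7l1 was 0.40 with equal cells and -0.995 to 0.041 without a library. Rpsa there was -0.092 to 0.071 without a library, 0.11 with total UMIs, 0.00057 without members in the scaling, 0.010 without doublet removal, 0.012 at 5% mitochondrial, 0.0050 with no mitochondrial filter, 0.0016 with equal cells and 0.0037 with at least 15 cells.

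Shares moved by more than the spread between libraries as follows. Without mitochondrial UMIs in the total they were 36.0% (T/NK), 29.3% (cDC2), 27.1% (cycling cDC), 25.6% (mature DC) and 23.1% (epithelial). Without the class markers they were 25.6% (mature DC), 23.0% (epithelial) and 18.9% (macrophage). With equal cells they were 34.0% (T/NK), 29.2% (cDC2), 24.4% (mature DC) and 21.9% (epithelial). With the gate on thinned cells they were 26.3% (cDC1), 24.3% (cycling cDC), 25.4% (mature DC), 21.9% (epithelial) and 19.998% (monocyte). With Leiden clusters they were 26.0% (cDC2), 23.3% (cycling cDC), 24.4% (mature DC), 22.1% (epithelial) and 19.2% (macrophage). With a margin of 0.5 they were 26.1% (cycling cDC) and 21.70% (epithelial, 21.75% as reported). At least 1000 UMIs gave 25.4% (mature DC), and no doublet removal 21.65% (epithelial). At most 5% mitochondrial gave 25.4% (mature DC) and 23.1% (epithelial), and no mitochondrial filter gave 19.9% (epithelial). Leaving out a library gave 34.5% to 35.7% (T/NK), 21.5% to 24.1% (fibroblast) and 17.2% to 18.3% (macrophage).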
